A study of Mus musculus with 8 samples.

Results

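The 10 genes described here encode secreted signals that call or feed white blood cells: the CXC chemokines *Cxcl1*, *Cxcl2*, *Cxcl5*, *Cxcl15*, *Cxcl16* and *Cxcl17*, the CC chemokines *Ccl2* and *Ccl20*, and the colony-stimulating factors *Csf1* and *Csf3*. They were chosen by symbol from the 27998 genes of the count tables, and each symbol matched 1 gene identifier. Single cells came from the mammary glands of C57BL/6N mice, with 2 mice at each of 4 stages: nulliparous females 8 weeks old (NP), mice at day 14.5 of gestation (G), mice at day 6 of lactation (L) and mice 11 days after natural weaning (post-involution, PI). No mouse carried a transgene or received a treatment. Glands were digested with enzymes, cells with the endothelial, leukocyte or erythroid surface markers CD31, CD45 or Ter119 were gated out, EpCAM-positive cells were sorted, and each mouse gave 1 droplet library (10x 3′ chemistry). Transcripts were counted as unique molecular identifiers (UMIs), summed per mouse and per cluster of the authors (C1 to C19, at least 20 cells), and given as UMIs per 1000000 UMIs of that sum (CPM). By vaginal smear, PI replicate 1 was in dioestrus and the NP mice and PI replicate 2 in oestrus.

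Chemokines are small proteins that bind G protein-coupled receptors on leukocytes and set the direction in which these cells move. *Cxcl1*, *Cxcl2* and *Cxcl5* act on the receptor Cxcr2 and attract neutrophils, and *Cxcl15* (lungkine) attracts neutrophils and is best known from lung epithelium. *Cxcl16* is made as a membrane-bound ligand for Cxcr6, *Cxcl17* is a mucosal chemokine, *Ccl2* attracts monocytes through Ccr2, and *Ccl20* attracts Ccr6-bearing lymphocytes and dendritic cells. *Csf3* (G-CSF) drives the production of neutrophils and *Csf1* (M-CSF) the survival of macrophages, which surround mammary ducts and are needed for their normal growth. Many of these genes are induced through the transcription factor NF-kB.

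Of the members, 4 lie in 1 chemokine cluster on mouse chromosome 5 (GRCm38, plus strand): *Cxcl5* at chr5:90759360-90761624, *Cxcl15* at chr5:90794534-90803067, *Cxcl1* at chr5:90891241-90893115 and *Cxcl2* at chr5:90903871-90905938. These spans are those of GENCODE. The promoters of 5 members were found in the RefSeq table (GRCm38.p6), those of *Cxcl1*, *Cxcl2*, *Cxcl15*, *Ccl20* and *Csf1*; *Cxcl5*, *Cxcl16*, *Cxcl17*, *Ccl2* and *Csf3* had no entry. The 250 bases before each RefSeq start were searched on both strands for GGGNNTTTC, GGGAAATTC and GGAATTTCC, short forms of the NF-kB motif that can overlap one another. At least 1 of these 3 motifs was found in 1326 of 32851 promoters of the same length (4.04%). The last 120 bases before the RefSeq start, which for *Cxcl1* and *Cxcl2* lies a few bases inside the GENCODE span, are shown for *Cxcl1* and *Cxcl2*, the pair of members whose levels correlated most closely over the sums of C1 to C15 (Pearson r = 0.865), for their neighbour *Cxcl15*, which was high in other clusters, and for *Ccl20*, with matches in capitals:
Cxcl1: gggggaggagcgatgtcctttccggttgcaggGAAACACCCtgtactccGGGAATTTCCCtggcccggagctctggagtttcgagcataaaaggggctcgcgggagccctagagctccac
Cxcl2: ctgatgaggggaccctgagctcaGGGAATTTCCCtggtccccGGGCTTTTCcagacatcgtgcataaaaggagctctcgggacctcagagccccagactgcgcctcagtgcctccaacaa
Cxcl15: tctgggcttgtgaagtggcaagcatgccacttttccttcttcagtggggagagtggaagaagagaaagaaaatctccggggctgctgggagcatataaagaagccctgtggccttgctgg
Ccl20: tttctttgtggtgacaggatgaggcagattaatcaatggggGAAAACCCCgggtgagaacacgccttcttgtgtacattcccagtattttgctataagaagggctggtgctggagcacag
The windows are chr5:90891125-90891244 for *Cxcl1*, chr5:90903779-90903898 for *Cxcl2*, chr5:90794414-90794533 for *Cxcl15* and chr1:83116646-83116765 for *Ccl20*, all on the plus strand. *Cxcl1* and *Cxcl2* each held 4 matches, 3 of them overlapping in 1 stretch, *Ccl20* held 1, *Csf1* held 1 that lies 145 bases before its start and outside the stretch printed for the others, and *Cxcl15* held none. A match of letters is no evidence of binding.

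The 8 libraries held 13785920 to 35711533 UMIs, with 1449 to 5736 cells each after the authors' filters, and median UMIs per cell of all stages but L lay between 5825.5 and 9624, against 3770 and 4258 in the L mice. The cluster names below are those of the authors, who called them on the same transcripts, so levels are compared between clusters without a test. Luminal progenitors are C6 (NP) and C7 (PI), hormone-sensing progenitors C2 and C1, differentiated hormone-sensing cells C4, C3 and C5 (G), alveolar progenitors C10 (G) and C11 (L), differentiated alveolar cells C8 (G) and C9 (L), basal cells C12 to C14, and C15 a *Procr*-positive cluster of the L mice that the authors placed with the basal cells. *Epcam*, the gene of the sorted protein, reached 5524 and 5250 CPM in C6 but 18.6 and 13.3 CPM in C15. The 6 pericyte markers summed to 5635 and 4899 CPM in C15, against 118 and 54.5 CPM in C14, and the basal keratin *Krt5* stood at 45.02 and 97.9 CPM in it, so the data go against an epithelial label for C15 and it is called by its number. Clusters C16 and C17 (immune), C18 (fibroblast) and C19 (endothelial) were not removed by the sort, and 5 of the 10 members had their highest mean level there. *Cxcl2* was at 3835 to 7867 CPM and *Cxcl16* at 687 to 1054 CPM in the 4 sums of C17. *Cxcl1*, *Ccl2* and *Csf1* were highest in C18 of the NP mice, with means of 8163 ± 2654, 8182 ± 3560 and 555.8 ± 61.6 CPM (SD, n = 2). *Cxcl5*, *Cxcl15*, *Cxcl17*, *Ccl20* and *Csf3* had their highest means in epithelial clusters.

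**Figure D1:**
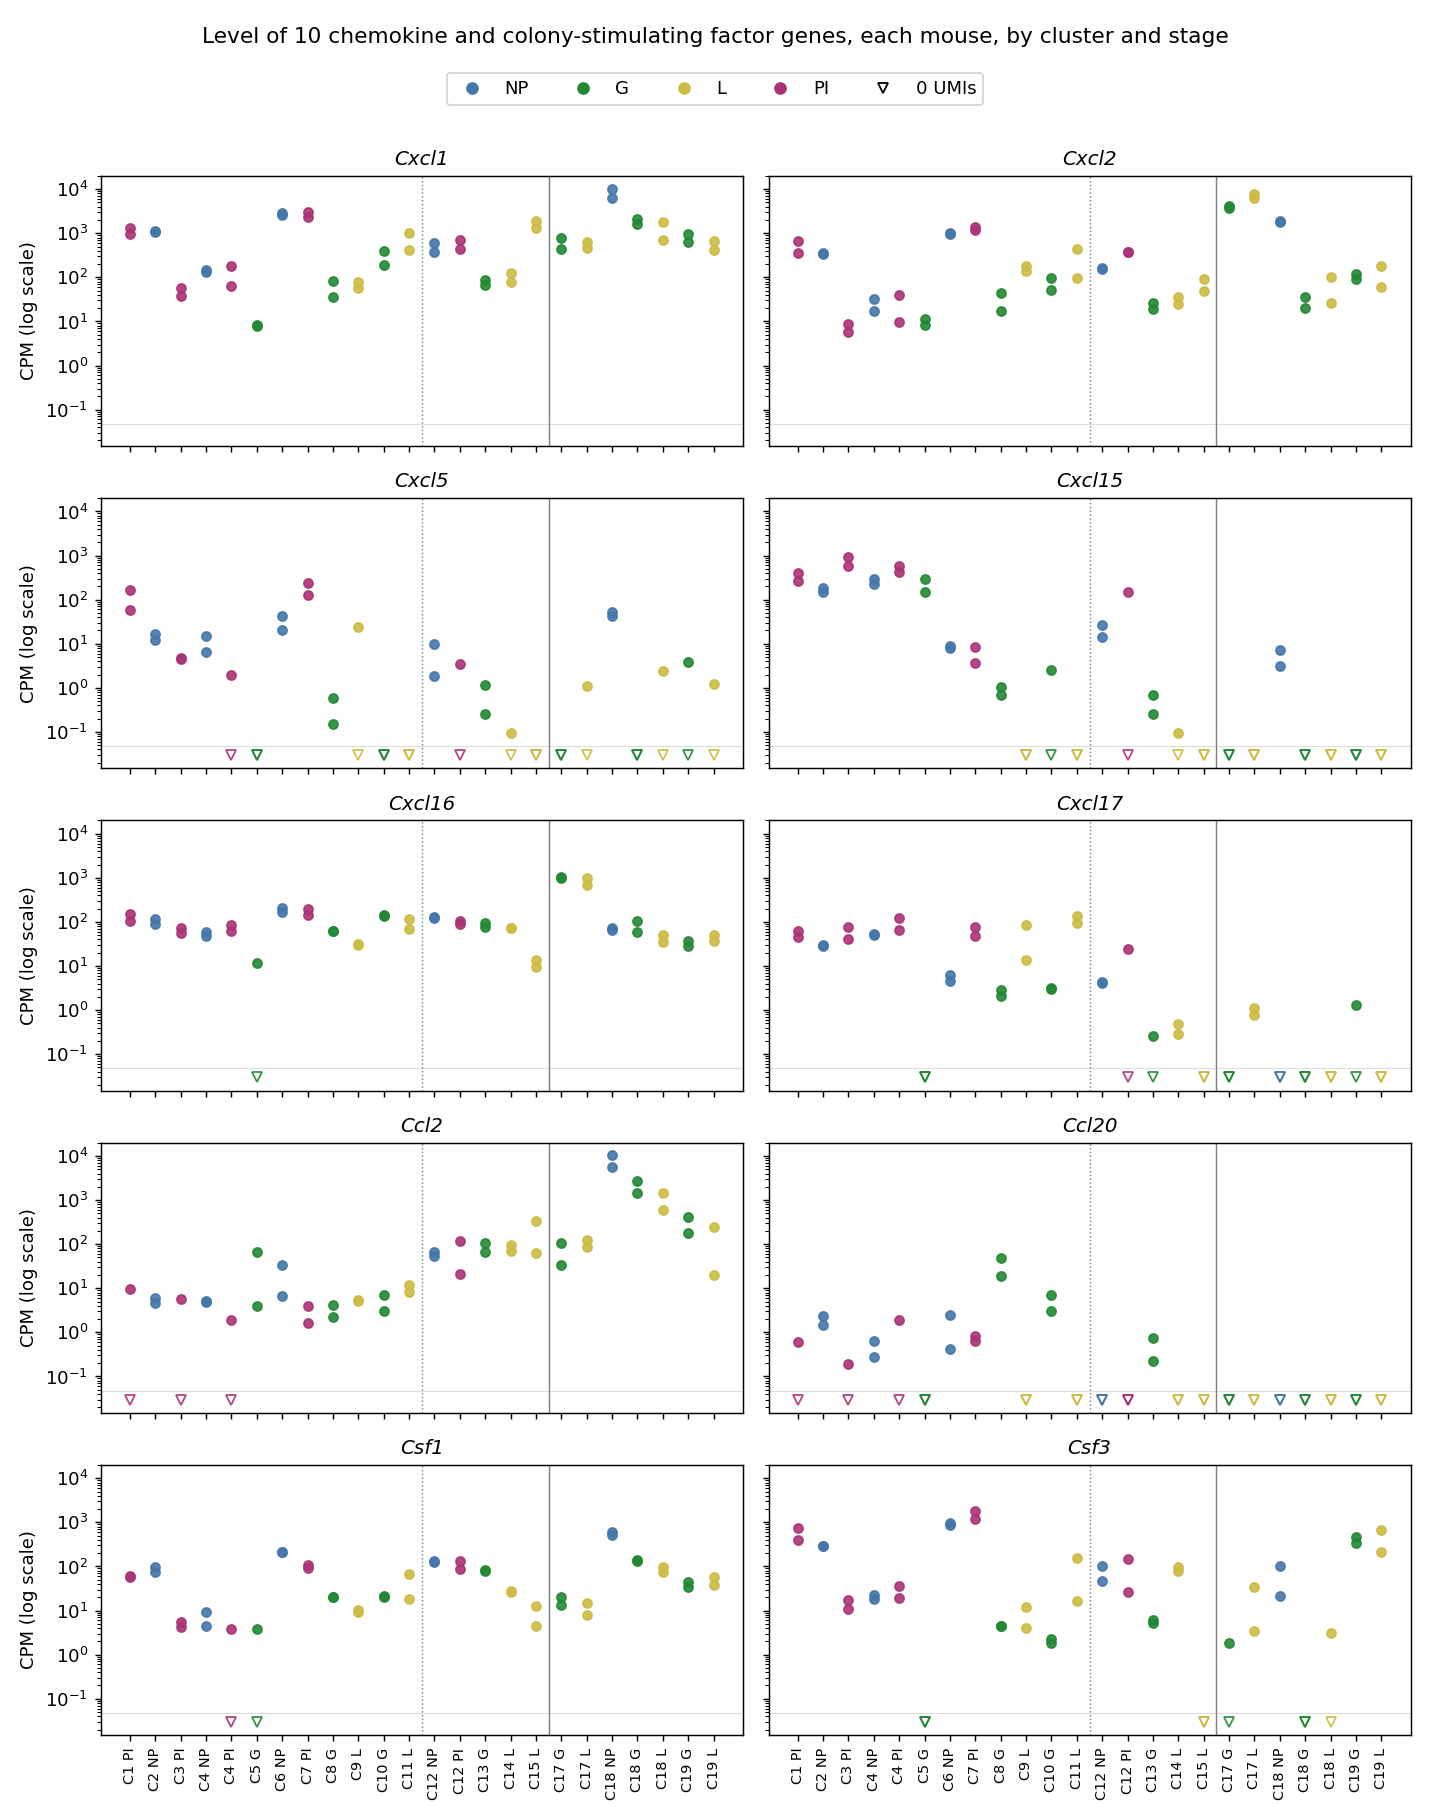
Level of each gene in CPM (vertical, log scale) by cluster and stage (horizontal), 1 point a mouse for the cluster and stage pairs with 2 mice; open triangles are sums with 0 UMIs, the dotted line divides luminal from basal clusters and the solid line C1 to C15 from C16 to C19. *Cxcl1*, *Cxcl2* and *Csf3* peak in luminal progenitors (C6 and C7) among epithelial clusters, *Cxcl15* in the hormone-sensing clusters C1 to C5, and *Ccl20* in C8, at 49.0 and 18.8 CPM.

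Luminal progenitors were the epithelial cells with the highest levels of the neutrophil-attracting pair *Cxcl1* and *Cxcl2* and of *Csf3*. *Cxcl1* stood at 2651 and 2837 CPM in C6 of the NP mice and at 3014 and 2286 CPM in C7. In the 22 C6 cells of PI replicate 1, a sum without a second mouse, it stood at 3342 CPM. The ranges of C6 in NP and of C7 overlapped, and both lay above the next of C1 to C15, C15 itself, at 1891 and 1344 CPM. The hormone-sensing progenitors followed with 1332 and 962 CPM in C1 and 1047 and 1142 CPM in C2, also overlapping. The lowest of the 17 cluster and stage pairs with 2 mice was C5, hormone-sensing cells of gestation, at 8.11 and 7.74 CPM. Among cells, 85.8% and 81.7% of C6 had at least 1 UMI of *Cxcl1*, and the 10% of cells with the most UMIs of it held 53.5% and 50.9% of them. Cells were also thinned to 1000 UMIs each, which takes out differences in depth: *Cxcl1* was then seen in 54.8% and 57.0% of C6, 57.4% and 49.9% of C7, 46.0% and 37.9% of C2, 11.5% and 9.82% of C4, and 3.88% and 4.26% of C3. In sums alone, fewer cells with a transcript and less transcript per cell cannot be told apart, so such shares are given beside the main results. Free RNA in droplets gives UMIs in cells that do not make a transcript, and its part in the *Cxcl1* shares of the NP and PI libraries was not tested.

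*Cxcl2* was ordered C7 (1414 and 1214 CPM), C6 (955 and 1006 CPM), C1 (670 and 363 CPM), without overlap between these neighbours. *Csf3* gave the same first 3 clusters, C7 at 1832 and 1224 CPM, C6 at 852 and 952 CPM and C1 at 744 and 407 CPM, again without overlap, and C2 came next at 296 and 297 CPM. All other sums of *Csf3* in C1 to C15 from clusters and stages with 2 mice lay at or below 155.2 CPM. *Csf3* transcripts were uneven among luminal progenitors: 46.8% and 44.9% of C6 cells had a UMI, and the top 10% of cells held 70.2% and 70.0% of the UMIs. *Cxcl5* was rarer still. It reached 239 and 129 CPM in C7, where 18.1% and 13.6% of cells had a UMI and the top 10% held 93.4% and 96.1% of them, and 168 and 58.3 CPM in C1. C6 was below both at 41.7 and 20.3 CPM.

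*Cxcl15* had another distribution, with its high levels in hormone-sensing cells and not in luminal progenitors. It stood at 595 and 922 CPM in C3, 417 and 582 CPM in the C4 cells of the PI mice, 261 and 402 CPM in C1, 290 and 231 CPM in C4 of the NP mice, 292 and 147 CPM in C5, and 185 and 149 CPM in C2. From C1 down to C2 neighbouring ranges overlapped. The luminal progenitors had 8.75 and 7.88 CPM in C6 and 3.65 and 8.41 CPM in C7. The gene was broadly held within its cells: 88.1% and 94.6% of C3 cells had a UMI, and the top 10% held 32.8% and 28.0% of them. Over the 35 sums of C1 to C15, log2 levels of *Cxcl15* correlated most closely with *4921506M07Rik* (Pearson r = 0.984), *Syt7* (r = 0.976) and *Cd164* (r = 0.970) among 6268 genes. For *Cxcl1* the closest genes were *Zc3h12a* (r = 0.888), an RNase that degrades inflammatory mRNAs, *Ccrl2* (r = 0.868), a chemokine receptor-like gene, and *Cxcl2* (r = 0.865). For *Cxcl5* the closest was *Cxcl3* (r = 0.850), its relative among Cxcr2 ligands, and for *Csf3* it was *Fam129b* (r = 0.853). Without the sums of C15, a choice made after seeing the data, *Cxcl1* and *Cxcl2* correlated at 0.9135 and the others named here at 0.843 to 0.983. These correlations are descriptions: the sums share libraries, clusters and depth.

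*Cxcl16* was the most evenly spread member, at 29.7 CPM or more in every luminal and basal pair but C5 and C15. It was highest in C6 (212 and 166 CPM) and C7 (200 and 143 CPM), which overlapped, and C10 followed at 138 and 141 CPM. Among the same pairs *Csf1* was highest in C6 of the NP mice at 208 and 210 CPM, clear of C12 of the NP mice at 134 and 129 CPM. Luminal progenitors and basal cells of nulliparous glands thus came first among these pairs by mean. C12 of the PI mice came next at 89.6 and 130.3 CPM and overlapped C12 of the NP mice. C3 and C4, of the differentiated hormone-sensing cells, stayed at or below 9.47 CPM. *Cxcl17* was spread over several cell classes. It stood at 94.4 and 134 CPM in C11, 77.9 and 48.7 CPM in C7, 51.4 and 51.9 CPM in C4 of the NP mice and 6.34 and 4.56 CPM in C6 of the NP mice, and most neighbours in its order overlapped. The C6 sum of PI replicate 1 (22 cells) had no second mouse and is in none of these orders. It stood at 210.9 CPM for *Cxcl17*, 388.9 CPM for *Cxcl16* and 316.4 CPM for *Csf1*, above every other sum of C1 to C15. *Ccl2* was highest in the basal clusters among C1 to C14, with 107 and 67.7 CPM in C13, 68.7 and 97.3 CPM in C14, 117 and 21.1 CPM in C12 of the PI mice and 65.8 and 55.4 CPM in C12 of the NP mice, and at most 12.03 CPM in the alveolar clusters. Neighbours in this order overlapped, and C15 stood at 329 and 62.3 CPM. Its closest genes were *Slit3* (r = 0.889), *Fstl1* (r = 0.888) and *Htra1* (r = 0.886), at 0.869 to 0.871 without C15. *Ccl20* was seen above 10 CPM in C8 alone, the differentiated alveolar cells of gestation, at 49.0 and 18.8 CPM, where 10.1% and 4.84% of cells had a UMI; in C10 it was at 6.89 and 3.12 CPM.

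Stages were then compared within a cell class on sums per mouse with the edgeR quasi-likelihood test, 2 mice against 2, with Benjamini-Hochberg adjustment over all genes tested; fold changes are log2 with their standard error. The 9 comparisons share mice: the NP sums of 1 class serve as reference for both G and PI, and all classes of a mouse come from its 1 library. Before pregnancy against after weaning, *Cxcl1* of luminal progenitors overlapped between the stages while other members moved in both directions. Of 9 members tested, 4 rose and 2 fell in PI; over all 10766 genes tested, 13.9% rose and 13% fell. The median change of the 9 was 0.03, against -0.02 over all genes.

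*Cxcl17* had 6.34 and 4.55 CPM in luminal progenitors of the NP mice and 80.6 and 49.1 CPM in those of the PI mice. The stages were far apart (log2 fold change 3.62 ± 0.303, adjusted p = 1.46e-05). Cells with a UMI were 5.11% and 2.53% of C6 and 34.0% and 23.8% of C7, or 0.269% and 0% against 6.31% and 4.995% after thinning. *Cxcl5* moved from 41.7 and 20.3 CPM to 234 and 128 CPM, also without overlap (2.59 ± 0.309, adjusted p = 0.000155). Its thinned shares were 3.23% and 1.58% in C6 and 9.47% and 5.81% in C7. *Csf3* rose from 852 and 951 CPM to 1816 and 1221 CPM (0.83 ± 0.185, adjusted p = 0.00725), with thinned shares of 23.9% and 26.9% against 43.9% and 33.5%. For *Cxcl2* the NP levels of 955 and 1005 CPM lay below the PI levels of 1412 and 1210 CPM (0.50 ± 0.143, adjusted p = 0.0243). Its call was lost without NP replicate 1, without NP replicate 2 and without PI replicate 1 (adjusted p = 0.179, 0.0809 and 0.0568), and that of *Csf3* without NP replicate 1 (adjusted p = 0.0617). Of 4 tested immune markers *Lyz2* and *Cd74* rose as well, and the 13 measured summed to 24.8 and 30.6 CPM in NP and 49.2 and 57.0 CPM in PI. Without the cells that hold a UMI of 5 immune genes *Cxcl2* was still called (0.45, adjusted p = 0.0311). Those genes were *Ptprc*, *Tyrobp*, *Laptm5*, *Cd52* and *Coro1a*, and not *Lyz2* or *Cd74*. The part of immune RNA in the rises was not tested. *Csf1* fell, from 208 and 210 CPM to 115 and 95.4 CPM (-0.91 ± 0.129, adjusted p = 0.000475), and its thinned share went from 15.1% and 17.1% of C6 to 7.65% and 7.72% of C7. The class was nearly all C6 in NP and nearly all C7 in PI. In the 22 C6 cells of PI replicate 1, a sum of 1 mouse, *Csf1* stood at 316.4 CPM and *Cxcl17* at 210.9 CPM. The part of the change of cluster was not tested. *Cxcl1* stood at 2651 and 2834 CPM in NP and 3021 and 2287 CPM in PI, with overlap (0.03 ± 0.171, adjusted p = 0.915).

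*Ccl2* was called lower in luminal progenitors of the PI mice (-2.60 ± 0.634, adjusted p = 0.0118), but its levels were low and rested on 1 mouse: 6.64 and 33.1 CPM in NP and 1.59 and 4.24 CPM in PI. Fibroblast markers moved with it. The 7 markers summed to 11.8 and 197 CPM in the NP mice (6 and 7 of 7 detected) and to 1.19 and 25.9 CPM in the PI mice (4 and 7 of 7 detected); *Col1a1*, *Col3a1* and *Lum* had 0 UMIs in C7 of PI replicate 1. Their part in the result was not tested, and the call was lost without NP replicate 2 (-1.07, adjusted p = 0.215) and with DESeq2 (adjusted p = 0.129). *Cxcl16* (212 and 166 CPM against 203 and 144 CPM) and *Cxcl15* overlapped between stages and were not called, and *Ccl20* was too low to be tested.

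The other genes of the pathway in luminal progenitors moved in both directions. Of 21 NF-kB pathway genes and targets, all tested, 5 rose and 3 fell, with a median change of -0.07. *Tnfaip2*, a target of the pathway, fell by 2.05, while *Nfkb1*, a subunit of NF-kB, rose by 0.86, *Nfkbib*, one of its inhibitors, by 0.86 and *Sod2*, a mitochondrial target gene, by 0.75. Of 17 tested receptors and adaptors upstream, 6 rose and 2 fell, with *Tnfrsf1b* (1.96), *Il1r1* (1.73), *Cd14* (1.41) and *Myd88* (1.19) the largest rises. Among 11 tested other chemokine and colony-stimulating ligands, 2 rose and 2 fell: *Cxcl3* rose by 2.36, from a mean of 11.8 to 56.5 CPM, *Cx3cl1* by 0.55, *Cxcl10* fell by 1.599 and *Ccl5* by 1.56. The cytokine gene *Tnf* fell by 1.25. Milk protein genes were also higher in these cells after weaning, with sums of 770 and 1445 CPM in NP and 13390 and 14590 CPM in PI.

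**Figure D2:**
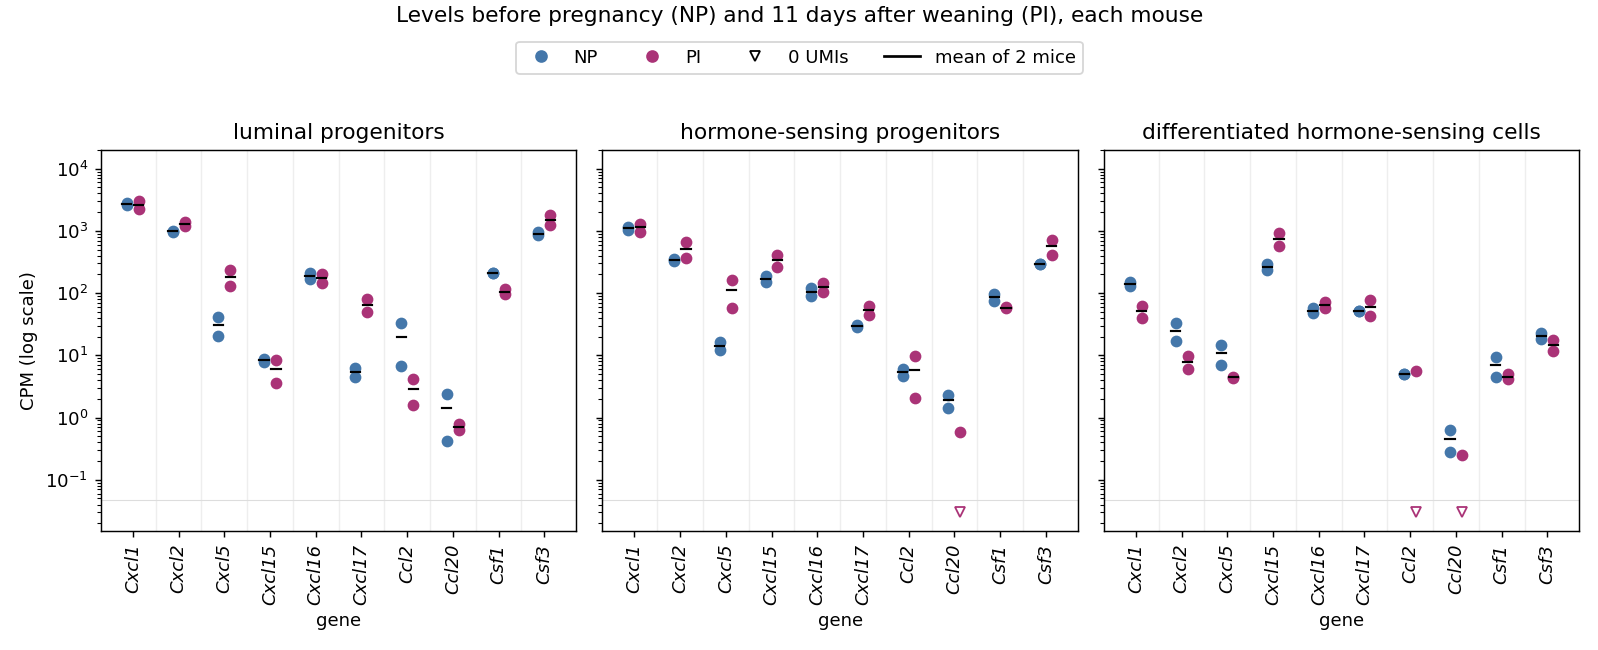
Level of each gene in CPM (vertical, log scale) in the 3 luminal classes compared between NP and PI, 1 point a mouse, with the mean of 2 mice as a bar where both had UMIs and open triangles for 0 UMIs. *Cxcl5* lies higher in PI in both progenitor classes and lower in differentiated hormone-sensing cells, and *Cxcl15* lies higher in PI in both hormone-sensing classes.

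In hormone-sensing progenitors, 4 of 9 tested members rose and 1 fell in PI, against 9.58% and 7.05% of 10692 genes. Median UMIs per cell were 16399 and 16877 in C2 of the NP mice and 16314 and 11580 in C1. In luminal progenitors they were 7767.5 and 6597 in C6 of the NP mice and 6483.5 and 5579 in C7. Differentiated hormone-sensing cells had 10163 and 10309 in C4 of the NP mice and 7179 and 5638 in C3. The part of doublets was not tested. *Cxcl5* went from 16.2 and 12.1 CPM to 163 and 58.1 CPM (2.84 ± 0.384, adjusted p = 0.000418), and its thinned share from 0.755% and 0.592% of C2 to 9.35% and 3.90% of C1. *Cxcl15* went from 185 and 149 CPM to 267 and 402 CPM (1.01 ± 0.189, adjusted p = 0.00377). *Csf3* went from 296 and 297 CPM to 726 and 405 CPM (0.90 ± 0.213, adjusted p = 0.0131). None of these ranges overlapped, and PI replicate 1 had the higher *Cxcl5* and *Csf3* and the lower *Cxcl15*. *Cxcl17* rose by 0.83 and *Csf1* fell by 0.57 (adjusted p = 0.00767 and 0.0187). *Cxcl2*, at 349 and 334 CPM against 656 and 364 CPM, missed the threshold (0.55 ± 0.212, adjusted p = 0.0996), and *Cxcl1* overlapped. Without NP replicate 1 and again without NP replicate 2, 1 member was called in place of 5, *Cxcl5*; without PI replicate 2 it was 7, with *Cxcl2* (adjusted p = 5.3e-06) and *Cxcl16* (adjusted p = 0.0441) added. Among the related genes, 5 of 10 tested other ligands rose and 2 fell, with *Ccl5* (-3.95), *Cxcl3* (3.03), *Cxcl10* (-1.82) and *Ccl4* (1.08) the largest among those reaching 10 CPM.

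In differentiated hormone-sensing cells, 1 of 9 tested members rose and 3 fell in PI, against 7.64% and 6.65% of 11994 genes. *Cxcl15* was the one that rose, from 291 and 232 CPM to 579 and 911 CPM (1.47 ± 0.237, adjusted p = 0.00204), without overlap. Its thinned share was 24.3% and 20.5% in C4 of the NP mice and 41.5% and 55.1% in C3. *Cxcl1* fell from 150 and 132 CPM to 40.0 and 61.3 CPM (-1.48 ± 0.205, adjusted p = 0.000821), with thinned shares of 11.5% and 9.82% against 3.88% and 4.26%. *Cxcl2* fell from 32.7 and 17.0 CPM to 6.03 and 9.59 CPM (-1.57 ± 0.293, adjusted p = 0.00488), and *Cxcl5* from 14.6 and 6.94 CPM to 4.38 and 4.48 CPM (-1.29 ± 0.325, adjusted p = 0.0218). All 3 had PI mice below both NP mice, and the call of *Cxcl5* was lost without NP replicate 1 (-0.71, adjusted p = 0.309). The class was nearly all C4 in NP and nearly all C3 in PI. In the 40 and 88 C4 cells of the PI mice *Cxcl1* stood at 63.2 and 186 CPM and *Cxcl2* at 9.49 and 40.2 CPM, which overlapped the NP levels of C4 for both genes. Basal markers moved with these falls: *Krt5* changed by -3.42, *Krt14* by -1.63 and *Acta2* by -2.56 in the same fit, all called, and the part of RNA from other cells was not tested.

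The change from NP to PI was set directly against that of other classes in 1 model with the mouse as a term. Between luminal progenitors and differentiated hormone-sensing cells it differed for 7 of 10 members, against 20.2% of 11743 genes. It was more positive in luminal progenitors for *Cxcl5* (difference 3.60 ± 0.302), *Cxcl17* (3.29 ± 0.464), *Cxcl2* (1.90 ± 0.306), *Cxcl1* (1.43 ± 0.225) and *Csf3* (1.33 ± 0.168), and more negative for *Cxcl15* (-1.86 ± 0.269) and *Ccl2* (-1.83 ± 0.612). Against hormone-sensing progenitors 3 of 10 differed, where 3.55% of all genes did: *Cxcl17* (2.81 ± 0.520), *Cxcl15* (-1.36 ± 0.267) and *Ccl2* (-2.59 ± 0.693). The *Ccl2* differences rested on single mice: both were lost without NP replicate 2 (adjusted p = 0.791 and 0.527), without PI replicate 2 (adjusted p = 0.388 and 0.537) and without the cells that hold a UMI of 5 immune genes (adjusted p = 0.159 and 0.0753). Against hormone-sensing progenitors, that of *Cxcl15* was lost without NP replicate 1 or 2 (adjusted p = 0.093 and 0.0711) and that of *Cxcl17* without NP replicate 2 (adjusted p = 0.0827). Without the mouse term the differences of *Cxcl15* (adjusted p = 0.0543 and 0.402) and *Ccl2* (adjusted p = 0.206 and 0.363) were lost in both contrasts.

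**Figure D3:**
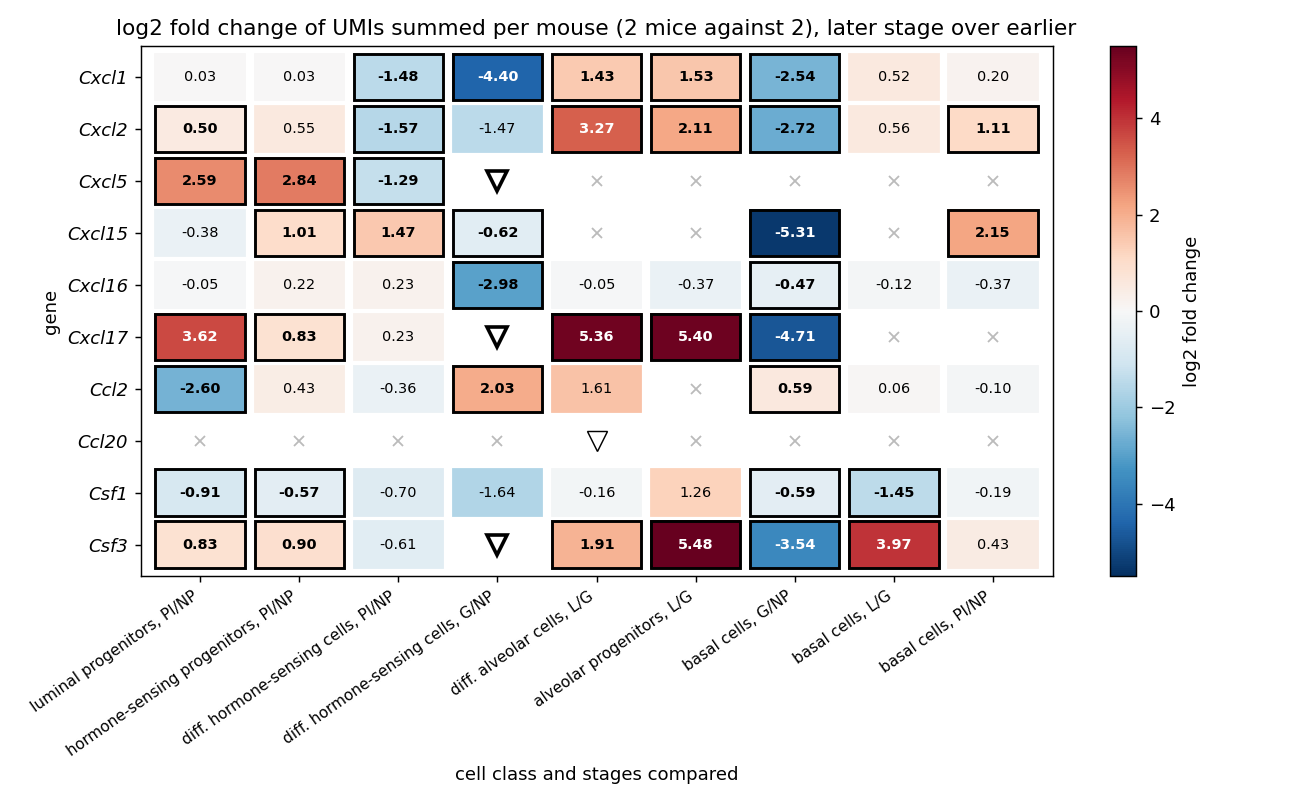
log2 fold change of each gene (rows) in each comparison (columns), later stage over earlier; framed bold values passed an adjusted p of 0.05, crosses were too low to be tested, and triangles (heavy where called) mark genes with 0 UMIs in both mice of the later stage, for which a fitted fold has no meaning. The 4 called rises of *Cxcl17* and, in differentiated hormone-sensing cells, the opposite signs of *Cxcl15* and *Cxcl1* between NP and PI can be read from their rows.

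The hormone-sensing cells of gestation, C5, were few, 20 and 41 cells with 123242 and 258370 UMIs, and held little of most members. Against differentiated hormone-sensing cells of the NP mice 6 of 9 tested members were called lower and 1 higher, where 10.6% and 8.03% of 10978 genes were. *Cxcl1* stood at 8.11 and 7.74 CPM, 1 and 2 UMIs, against 150 and 132 CPM (-4.40 ± 0.496, adjusted p = 6.22e-17), so that the NP level was 17.8 times the G level with an exact 95% counting interval of 6.09 to 86.4. In this fit alone the spread of each gene was taken wholly from the spread shared across genes. Its p-values therefore do not compare with those of the other fits. *Cxcl17*, *Csf3* and *Cxcl5* had no UMI in either mouse; with 3 UMIs over both mice as the limit, *Cxcl17* was at least 6.57-fold lower, *Csf3* at least 2.57-fold and *Cxcl5* at least 1.34-fold. *Cxcl16* was at 0 and 11.6 CPM against 58.0 and 47.0 CPM (-2.98 ± 0.589, adjusted p = 8.85e-06), a ratio of 6.63 with a counting interval of 2.26 to 32.2. *Cxcl15*, in contrast, stood at 292 and 147 CPM against 291 and 232 CPM, with overlap, and its call (-0.62 ± 0.224, adjusted p = 0.0325) stood beside a median of -0.20 over all genes and was lost without NP replicate 1 (adjusted p = 0.158) or G replicate 2 (-0.11, adjusted p = 0.85). With the 3 genes without UMIs placed at their limits, the median of the 9 was -1.47. The rise of *Ccl2* (2.03, adjusted p = 0.0166) rested on G replicate 1, with 64.9 CPM against 3.87 CPM in G replicate 2 and 4.93 and 5.08 CPM in NP; without G replicate 1 its sign turned (-0.64, adjusted p = 0.783), and without NP replicate 1 or 2 the call was lost (adjusted p = 0.182 and 0.186). The calls of *Cxcl5* without G replicate 1 or 2 (adjusted p = 0.0719 and 0.364) and of *Csf3* without G replicate 2 (adjusted p = 0.138) were lost as well. With the sums thinned to equal depth 2 members could still be tested and 1, *Cxcl1*, was called. Of 21 NF-kB pathway genes 11 fell and 1 rose, among them *Icam1* (-3.65), *Nfkb2* (-3.51), *Rela* (-2.42) and *Ier3* (-2.25), while *Tnfsf11*, which encodes RANKL, rose by 8.03, from a mean of 2.12 to 647 CPM.

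In alveolar cells milk protein transcripts took up much of the total, 443700 and 416300 CPM of the differentiated alveolar cells in L, so levels are given here as CPM without 8 milk protein genes. From G to L, 4 of 8 tested members rose in differentiated alveolar cells and none fell, against 9.54% and 9.17% of 11860 genes. The L sums were small, 43 and 48 cells. *Cxcl17* went from 2.30 and 3.00 CPM to 31.1 and 143 CPM (5.36 ± 0.519, adjusted p = 1.58e-05), and *Cxcl2* from 49.3 and 18.2 CPM to 333 and 242 CPM (3.27 ± 0.386, adjusted p = 8.29e-05). The L mice lay above both G mice for each. *Cxcl1* (90.01 and 37.7 CPM against 202 and 108 CPM) and *Csf3* (5.02 and 4.78 CPM against 21.8 and 11.5 CPM) also rose, by 1.43 and 1.91 (adjusted p = 0.0291 and 0.0222). Both calls were lost without L replicate 1 (adjusted p = 0.249 and 0.183), and that of *Cxcl1* also without G replicate 2 (adjusted p = 0.0906). Immune markers were higher in these L cells: 5 of 10 tested rose, and the 13 measured summed to 96.2 and 124.0 CPM in G and 563 and 145 CPM in L. Without cells holding a UMI of 5 immune genes, 31 and 43 L cells remained. The calls of *Cxcl1* (adjusted p = 0.0741) and *Csf3* (adjusted p = 0.389) were then lost, and those of *Cxcl17* and *Cxcl2* were kept. *Cxcl2* of all UMIs stood at 36.6 and 15.9 CPM in G and 32.6 and 170 CPM in L in the cells left. These totals include the milk protein genes, which took up more of them in L. Their overlap therefore cannot be set beside the levels without those genes. With all cells, *Cxcl2* of all UMIs stood at 185 and 141 CPM in L. In L replicate 1 most *Cxcl2* UMIs thus lay in the cells left out, unlike in L replicate 2. The part of immune RNA in this rise was not tested. *Ccl20* had 1709 UMIs in the G mice, 54.3 and 19.9 CPM, and 0 in the L mice, where it was at least 9.66-fold lower; edgeR did not call it (unadjusted p = 0.0153, adjusted p = 0.0703), whereas DESeq2 did (adjusted p = 0.00226), as did edgeR without G replicate 1 or 2 (adjusted p = 0.03 and 0.00245). *Cxcl16*, *Csf1* and *Ccl2* were not called (-0.05, -0.16 and 1.61).

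Alveolar progenitors gave 4 rises and no fall among 6 tested members with edgeR (0 falls also at an unadjusted p under 0.05 and with DESeq2), against 15.7% and 12.3% of 8446 genes. *Cxcl17* stood at 3.07 and 3.13 CPM in G and 100 and 139 CPM in L (5.40 ± 0.325, adjusted p = 4.64e-06), and cells with a UMI were 3.37% and 1.59% of C10 and 34.5% and 44.9% of C11. *Csf3* went from 2.31 and 1.88 CPM to 17.2 and 161 CPM (5.48 ± 1.09, adjusted p = 0.00549), with L replicate 2 nearly alone in holding the high level. *Cxcl1* (406 and 194 CPM against 440 and 1079 CPM) and *Cxcl2* (98.3 and 50.6 CPM against 100 and 466 CPM) were likewise highest in L replicate 2 and were called higher by 1.53 and 2.11 (adjusted p = 0.0211 and 0.0228); without that mouse the changes were 0.79 and 0.68, and that of *Csf3* was 3.22. DESeq2 called 2 of the 4, *Cxcl17* and *Csf3*, and gave adjusted p of 0.205 and 0.201 for *Cxcl1* and *Cxcl2*. *Cxcl16* and *Csf1* were not called (-0.37 and 1.26). Basal markers were higher in the L cells of both alveolar classes, by 4.23 for *Krt14* and 5.10 for *Acta2* in the progenitors, and of 15 immediate early and heat shock genes known to respond to dissociation 13 rose there and 12 in the differentiated cells; their part was not tested. Among other ligands, *Cxcl14* rose by 5.76, from a mean of 24.8 to 1147 CPM, *Ccl3* by 5.69, *Ccl4* by 4.35, and *Cxcl10* fell by 3.90. Of 3 tested immune markers 2 rose in these progenitors, as did 2 of 2 tested fibroblast markers. The 13 immune markers measured summed to 56.9 and 60.6 CPM in G and 383 and 284.5 CPM in L. The part of RNA from such cells was not tested.

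**Figure D4:**
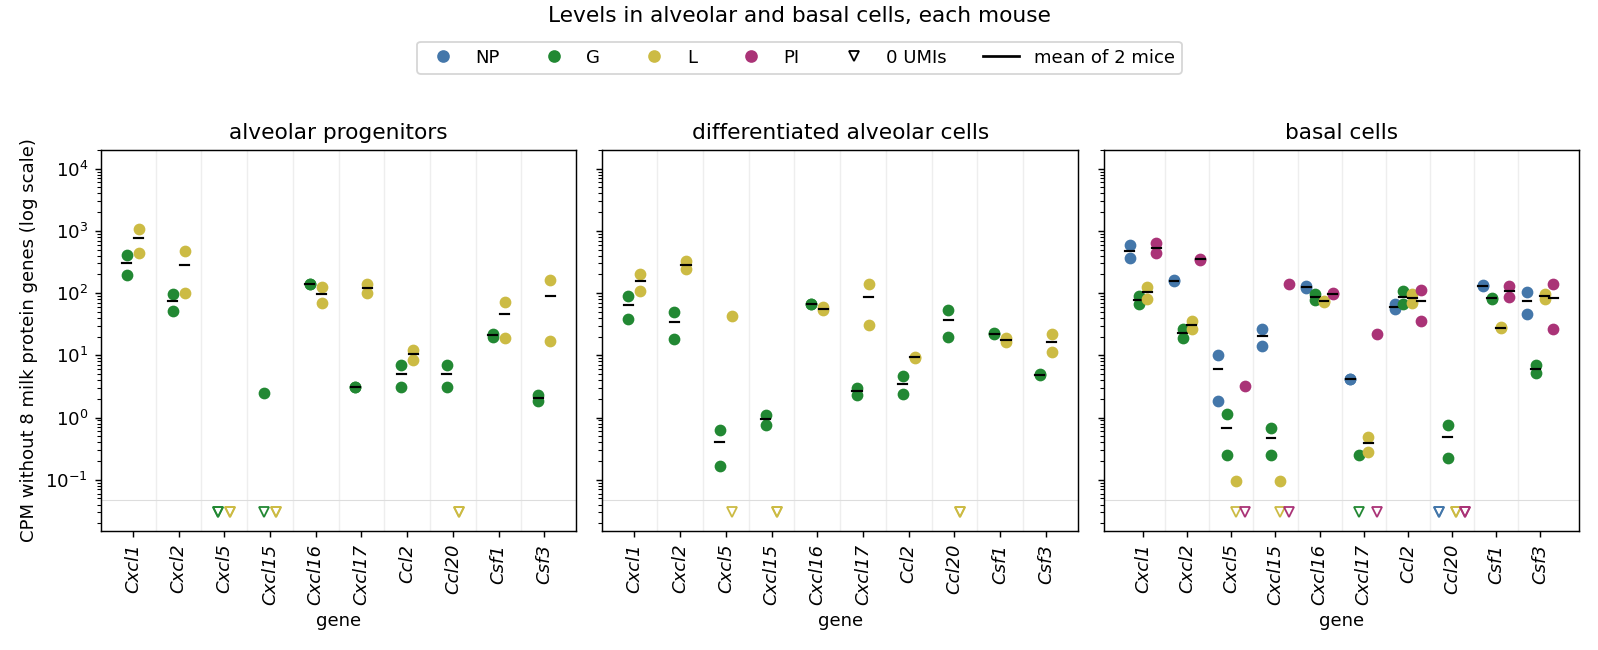
Level of each gene in CPM without 8 milk protein genes (vertical, log scale) in alveolar progenitors, differentiated alveolar cells and basal cells by stage, 1 point a mouse, with the mean of 2 mice as a bar where both had UMIs and open triangles for 0 UMIs. *Cxcl17* rises from G to L in both alveolar classes, *Ccl20* is at 0 in L, and in basal cells *Csf3* is lowest in G while *Csf1* is lowest in L.

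In the basal sums, levels of most neutrophil-attracting transcripts were lower in gestation than in nulliparous mice. Of 8 tested members 7 fell and 1 rose from NP to G, against 21.9% and 24.3% of 11086 genes. *Cxcl1* fell from 592 and 372 CPM to 89.0 and 67.3 CPM (-2.54 ± 0.186, adjusted p = 4.11e-08), *Cxcl2* from 158 and 160 CPM to 19.1 and 26.03 CPM (-2.72 ± 0.160, adjusted p = 3.06e-09) and *Csf3* from 103 and 46.0 CPM to 5.28 and 6.96 CPM (-3.54 ± 0.314, adjusted p = 2.95e-07). No range overlapped, and thinned shares of *Cxcl1* were 23.2% and 21.3% of C12 in the NP mice against 5.33% and 4.38% of C13. *Cxcl2* was held by few cells: the top 10% of C12 cells had 90.1% and 94.6% of its UMIs. *Cxcl15* (26.8 and 14.1 CPM against 0.252 and 0.673 CPM) and *Cxcl17* (4.23 and 4.097 CPM against 0.252 and 0 CPM) fell to 4 UMIs and 1 UMI in all (the NP level of *Cxcl17* was 35.2 times that in G, counting interval 5.81 to 1440), and *Csf1* and *Cxcl16* fell by 0.59 and 0.47. *Ccl2* rose by 0.59, from 65.8 and 55.1 CPM to 106 and 66.7 CPM (adjusted p = 0.0176). Its call was lost without NP replicate 2 (adjusted p = 0.0516) or G replicate 1 (0.21, adjusted p = 0.300) and with DESeq2 (adjusted p = 0.0617), and that of *Cxcl16* without NP replicate 1 (adjusted p = 0.0786) or G replicate 1 (adjusted p = 0.0615). Luminal transcripts moved with these falls: *Epcam* changed by -1.44, *Krt8* by -1.14 and *Krt18* by -2.90. Immediate early and heat shock genes moved too, with 12 of 15 called higher, and *Cxcl2* of NP replicate 2 stood at 66.1 CPM without the cells that hold an immune UMI. Fibroblast markers moved with *Ccl2*, with sums of 187 and 273 CPM in NP and 912 and 689 CPM in G and 5 of 7 called higher. The part of none of these was tested.

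From G to L, *Csf3* rose and *Csf1* fell in basal cells. *Csf3* went from 5.28 and 6.96 CPM to 80.8 and 97.5 CPM (3.97 ± 0.209, adjusted p = 7.46e-06), and cells with a UMI from 3.24% and 3.199% of C13 to 26.3% and 34.0% of C14, though C14 cells were shallower. Thinned shares were 0.381% and 0.337% against 8.07% and 8.92%. In the fibroblast cells of the same L libraries (C18) 1.41% and 0% had a UMI of *Csf3* (0 of 52 cells, exact 95% limit 6.85%), at median depths of 4044 and 4015 UMIs against 3701 and 4148 in C14. Other clusters outside the epithelium held *Csf3* in L: C19 (endothelial) had 210.4 to 665.2 CPM and C17 (immune) 3.352 to 34.21 CPM. *Csf1* fell from 79.5 and 84.6 CPM to 27.1 and 28.4 CPM (-1.45 ± 0.133, adjusted p = 8.04e-05), with thinned shares of 5.71% and 8.42% against 2.29% and 2.74%. These were the calls among 6 tested members, 1 in each direction, where 24.2% of 12720 genes rose and 24.0% fell. *Cxcl2*, at 19.1 and 26.03 CPM against 35.6 and 26.1 CPM, missed the threshold (0.56 ± 0.209, adjusted p = 0.0537) but was called without G replicate 2 (0.79, adjusted p = 0.0256), without L replicate 2 (0.77, adjusted p = 0.00183) and without the cells holding an immune UMI (1.07, adjusted p = 0.000948). *Cxcl1* was not called either (0.52 ± 0.221, adjusted p = 0.0812) but passed without G replicate 1 (adjusted p = 0.0335) or L replicate 2 (adjusted p = 6.04e-05), and *Ccl2* overlapped. Immediate early and heat shock genes rose in these cells, 14 of 15 with a median of 2.18, among them *Fos* by 3.03 and *Egr1* by 2.79, and their part was not tested. Among other ligands *Cxcl14*, a chemokine abundant in basal cells, rose by 2.44 from a mean of 1795 to 9033 CPM, *Ccl3* rose by 3.68 and *Ccl4* by 2.98, and the eosinophil attractant *Ccl11* fell by 2.41.

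After weaning few basal cells were captured, 28 and 59, and 2 of 7 tested members were called higher than in NP and none lower with edgeR (0 also at an unadjusted p under 0.05 and with DESeq2), against 4.74% and 2.69% of 8511 genes. *Cxcl2* had 358 and 339 CPM against 158 and 160 CPM in NP (1.11 ± 0.182, adjusted p = 0.000275), a call that was lost without NP replicate 1 or 2 (adjusted p = 0.106 and 0.0716). The immune marker sum was 831 and 38.4 CPM in PI against 102 and 137 CPM in NP. In PI it came from *Cd74*, the 1 such marker tested and called higher (1.91), and *Cd68*, while *Ptprc*, *Tyrobp*, *Fcer1g* and *Laptm5* had 0 UMIs in both PI mice. *Cxcl15* had 0 and 138 CPM against 26.8 and 14.1 CPM (2.15 ± 0.481, adjusted p = 0.00594), so its call rested on PI replicate 2, without which no UMI was left in PI; DESeq2 did not call it (adjusted p = 0.642). *Cxcl1*, *Csf3*, *Csf1*, *Cxcl16* and *Ccl2* were not called, and their intervals were wide, with standard errors of 0.214 to 0.400. Of 15 immediate early and heat shock genes 10 rose here as well. *Il6* rose by 4.24, from a mean of 4.86 to 87.7 CPM.

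Few receptors for these ligands could be tested in the epithelial sums. Of 27 receptor genes listed, 1 to 9 passed the filter on low counts in each comparison. The atypical chemokine receptor *Ackr3*, which takes up Cxcl12, rose in PI in luminal progenitors (1.84) and hormone-sensing progenitors (1.44), and in L in alveolar progenitors (3.43) and basal cells (2.13, from a mean of 37.9 to 153 CPM). *Ackr4*, another atypical receptor, rose in basal cells from NP to G (1.71) and from G to L (1.64). The sheddases *Adam10* and *Adam17*, which release Cxcl16 from the membrane, were tested throughout: *Adam17* fell in luminal progenitors in PI (-1.28) and in differentiated alveolar cells in L (-1.95), and *Adam10* in hormone-sensing progenitors in PI (-0.45).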

How the data were processed

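Single-cell transcriptomes of sorted mammary cells from 8 mice, 2 at each of 4 stages, were analysed from the UMI counts deposited by the authors, who counted UMIs per gene with Cell Ranger after alignment to mm10 (STAR is named in the submitters' processing notes, versions not given in the sources used here). The authors removed cells with few genes or UMIs, cells with 5% or more mitochondrial UMIs (deposited as a fraction per cell), barcodes seen in more than 1 library (51 to 170 a library) and a doublet cluster, C20, and called the clusters; no further doublet caller was run. The filters leave 20 cells as the smallest sum used and 51 sums, 35 of them of C1 to C15.

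Counts were summed per mouse and cluster, or per mouse and cell class for tests (class sums include the few cells of a class's other clusters). The quasi-likelihood test of edgeR 4.0.16 (limma 3.58.1, R 4.3.3) used TMM scaling, genes passing filterByExpr (minimum count 10, total 15) and Benjamini-Hochberg adjusted p under 0.05 over all genes of a comparison; it was tested on simulated data. Thinning, shares, exact 95% intervals and limits (3 UMIs) were made with Python 3.11.15, numpy 2.4.6, scipy 1.17.1 and pandas 2.3.3, and cover counting error only. Alternatives were DESeq2 1.42.0, no filter on low counts, milk protein genes left out, cells with a UMI of 5 immune genes left out, the main cluster of a class alone, equal depth, the replicate number as a block, no mouse term, and leaving out each mouse. Members and gene lists were chosen with earlier results of these data known. All members are named; of each other list at most 4 called genes are named, those with the largest change that reached 10 CPM. Likeness was the Pearson correlation of log2(CPM + 1) over genes reaching 50 CPM in a sum. Mice of a stage are separate animals, but only 2, so precision rests on a spread shared across genes.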

Additional observations from a re-analysis of the deposited data

Results flagged for a closer look

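For several members, cell classes differed in their change from NP to PI, by a test of the difference itself (edgeR, Benjamini-Hochberg over all genes). Set against differentiated hormone-sensing cells, luminal progenitors had a more positive log2 change for *Cxcl5* (3.60), *Cxcl17* (3.29), *Cxcl2* (1.90), *Cxcl1* (1.43) and *Csf3* (1.33), and a more negative one for *Cxcl15* (-1.86) and *Ccl2* (-1.83). Set against hormone-sensing progenitors, the change was more positive for *Cxcl17* (2.81) and more negative for *Cxcl15* (-1.36) and *Ccl2* (-2.59). Each of these last differences, and that of *Ccl2* against differentiated hormone-sensing cells, was lost when 1 NP mouse was left out. Those of *Cxcl15* and *Ccl2* were lost in both contrasts without the mouse term. With 2 mice a stage, no single mouse could be tested as an outlier.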

How the results depend on the processing

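Of the 52 fold changes and differences called for members, 31 were tested and called under every alternative that used all mice, 29 whenever 1 mouse was left out, and 24 under both, while 4, 1 and 3 more were called wherever they could be tested; the direction held for 52, 49 and 49 wherever a value was fitted. Members called moved from 5 to 3 in hormone-sensing progenitors, from 4 to 2 in alveolar progenitors and from 2 to 1 in basal cells of PI with DESeq2; in hormone-sensing cells of G from 7 to 4 with DESeq2, 1 at equal depth, where 2 could be tested, and 4 with the replicate block; in differentiated alveolar cells from 4 to 2 without cells holding an immune UMI and to 2 with the main cluster alone; in basal cells of L from 2 to 4 without a filter on low counts and to 4 with the replicate block; in basal cells of PI from 2 to 0 without a filter and to 0 at equal depth, where 5 could be tested; and against hormone-sensing progenitors from 3 to 1 without a mouse term. The causes were not tested. Leaving milk protein genes out changed no number of members called.

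Signs turned with no filter for *Cxcl16* in luminal progenitors (0.0038) and for *Csf3* against hormone-sensing progenitors (0.013), at equal depth for *Cxcl16* in differentiated alveolar cells (0.11), without immune-UMI cells for *Csf1* there (0.024), in basal cells of PI for *Ccl2* with DESeq2 (0.14) and with the replicate block (0.032), and for *Cxcl2* against hormone-sensing progenitors without a mouse term (-0.028). None of these was called.

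With each mouse left out in turn, members called ranged from 1 to 7 in hormone-sensing progenitors, 3 to 5 in hormone-sensing cells of G, 2 to 5 in differentiated alveolar cells, 2 to 4 in basal cells of L, 1 to 4 in basal cells of PI and 0 to 3 against hormone-sensing progenitors. Of the called results 3 turned sign. *Ccl2* ranged from -0.64 to 3.42 in hormone-sensing cells of G and from -2.66 to 4.58 in luminal progenitors against differentiated hormone-sensing cells, and *Cxcl15* from -8.57 to 2.65 in basal cells of PI, where the lowest value came from a lone mouse at 0 UMIs. Uncalled members that turned sign were, in luminal progenitors, *Cxcl1* (-0.17 to 0.21), *Cxcl15* (-1.14 to 0.12) and *Cxcl16* (-0.30 to 0.18); in hormone-sensing progenitors *Cxcl1* (-0.17 to 0.23), *Cxcl16* (-0.0017 to 0.45) and *Ccl2* (-1.37 to 0.91); in hormone-sensing cells of PI *Cxcl17* (-0.36 to 0.60) and *Ccl2* (-8.71 to 0.18); in differentiated alveolar cells *Cxcl16* (-0.086 to 0.14) and *Csf1* (-0.20 to 0.049); in alveolar progenitors *Cxcl16* (-0.78 to 0.011); in basal cells of L *Cxcl16* (-0.28 to 0.040) and *Ccl2* (-0.25 to 0.41); in basal cells of PI *Cxcl1* (-0.26 to 0.48), *Ccl2* (-0.81 to 0.78) and *Csf3* (-1.68 to 1.03); against differentiated hormone-sensing cells *Ccl20* (-0.32 to 0.066) and *Csf1* (-0.85 to 0.23); and against hormone-sensing progenitors *Cxcl1* (-0.039 to 0.061), *Cxcl2* (-0.28 to 0.30), *Cxcl5* (-0.50 to 0.23) and *Csf3* (-0.14 to 0.082).

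Replicate numbers name separate mice of 2 stages and pair nothing: deviations of equally numbered mice correlated at -0.095 to 0.14 over genes. Over all genes, DESeq2 called 1590 in place of 2892 in luminal progenitors, 823 in place of 1778 in hormone-sensing progenitors, 1144 in place of 2368 in alveolar progenitors, 3098 in place of 5114 in basal cells of G and 327 in place of 632 in basal cells of PI. Sums of few cells limit the hormone-sensing cells of G, the alveolar cells of L and the basal cells of PI.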
